A study of Mus musculus with 28 samples.

Results

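The contractile myofibroblast genes described here are Acta2, Actg2, Tagln, Myl9, Myh11, Tpm1, Tpm2, Cnn1, Vim and Mcam, 10 of the 21935 genes in the count table. They were listed by name, and each symbol was matched to its Ensembl mouse gene identifier on GRCm38. All 10 were found, and 9 of them were among the 12580 genes that passed the filter on low counts. The exception was Cnn1, which is described by its levels only.

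Smooth muscle cells and myofibroblasts contract when thick filaments of smooth muscle myosin pull on thin filaments of actin, with tropomyosin, calponin and transgelin bound along the actin. In the healthy liver these proteins are found mainly in the vessel wall, while the hepatic stellate cell, a vitamin A-storing pericyte, makes little of them. In fibrotic liver disease, stellate cells and portal fibroblasts become myofibroblasts that produce smooth muscle actin and collagen, and smooth muscle actin is the usual marker of that state.

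The livers came from male B6.V-Lepob/JRj mice, which lack leptin (Lep ob/ob), were obtained at 5 weeks of age and ate the AMLN diet over 14 weeks before treatment. All 3 groups carried the same mutation and ate the same diet, so that none was a lean or healthy control. Mice then received vehicle (n = 10), obeticholic acid (OCA) 30 mg/kg (n = 9) or INT-787 30 mg/kg (n = 9) by mouth once daily for 2 weeks. OCA, a semi-synthetic bile acid, and INT-787 are both agonists of the farnesoid X receptor (FXR), the nuclear receptor for bile acids. Polyadenylated RNA was sequenced from whole liver, so fewer cells of a type and less RNA per cell cannot be told apart in any of the values below.

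Libraries held 1009593 to 18342272 gene counts in the vehicle group, 10990531 to 22421506 with OCA and 12513715 to 22128216 with INT-787. Vehicle replicate 6 was the library with 1009593 counts, and its values for the low-count genes rest on few reads (13 counts for Acta2). Vehicle replicate 5 stood apart in 7 genes that lie within expressed genes of the opposite strand, at 1058 CPM (counts per 1000000 counts) against 36.6 to 62.0 in the other mice. Of the 10 genes described here, Tagln alone overlaps an opposite-strand gene (108 bp shared with Pcsk7), and its level in vehicle replicate 5 was 19.99 CPM, beside a group median of 19.97 CPM. Vehicle replicate 10 was the highest of the 10 vehicle mice for 9 of the 10 genes, and OCA replicate 8 was far above the other OCA mice for Vim. Results that depend on these mice are given with and without them. The labels name no batch.

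Levels are given as CPM, scaled by the trimmed mean of M-values (TMM), and differences as the log2 ratio of 2 groups from edgeR's quasi-likelihood model over all 28 mice. A difference was called at a Benjamini-Hochberg-adjusted p of 0.05 or less over the 12580 genes tested.

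Divided by exon length, the order of mean levels in vehicle mice ran from Vim at 27.2 ± 6.78 CPM per kb (SD, n = 10) to Cnn1 at 0.160 ± 0.226 CPM per kb. Vimentin is an intermediate filament protein of most mesenchymal cells and leukocytes. Between them stood Tpm1 at 13.6 ± 1.86, Tagln at 10.7 ± 3.19, Acta2 at 7.72 ± 5.01, Tpm2 at 7.05 ± 1.84, Myl9 at 5.59 ± 3.60, Mcam at 3.07 ± 1.10, Myh11 at 1.22 ± 1.02 and Actg2 at 0.803 ± 1.16 CPM per kb. Neighbors from Acta2 to Myl9 lay within 1 SD of each other, as did Myh11, Actg2 and Cnn1. With OCA, Tpm2 (8.27 ± 3.24 CPM per kb, n = 9) stood above Acta2 (7.34 ± 0.925), again within 1 SD. Vehicle mice had that order too once replicate 10 was left out, with Tpm2 at 6.63 ± 1.35 and Acta2 at 6.25 ± 2.00 CPM per kb (n = 9), and Actg2 and Cnn1 were then at 0.474 ± 0.549 and 0.0905 ± 0.0580 CPM per kb. With INT-787, Tpm2 was in second place at 12 ± 2.79 CPM per kb (n = 9), ahead of Tpm1 at 10.4 ± 0.744 and Tagln at 5.04 ± 0.851, and Acta2 was sixth at 3.55 ± 1.08. The genes were therefore far apart in depth, from 48709 counts for Vim and 33373 for Tpm1 over the 28 mice to 5638 for Acta2, 551 for Actg2 and 192 for Cnn1.

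**Figure D1:**
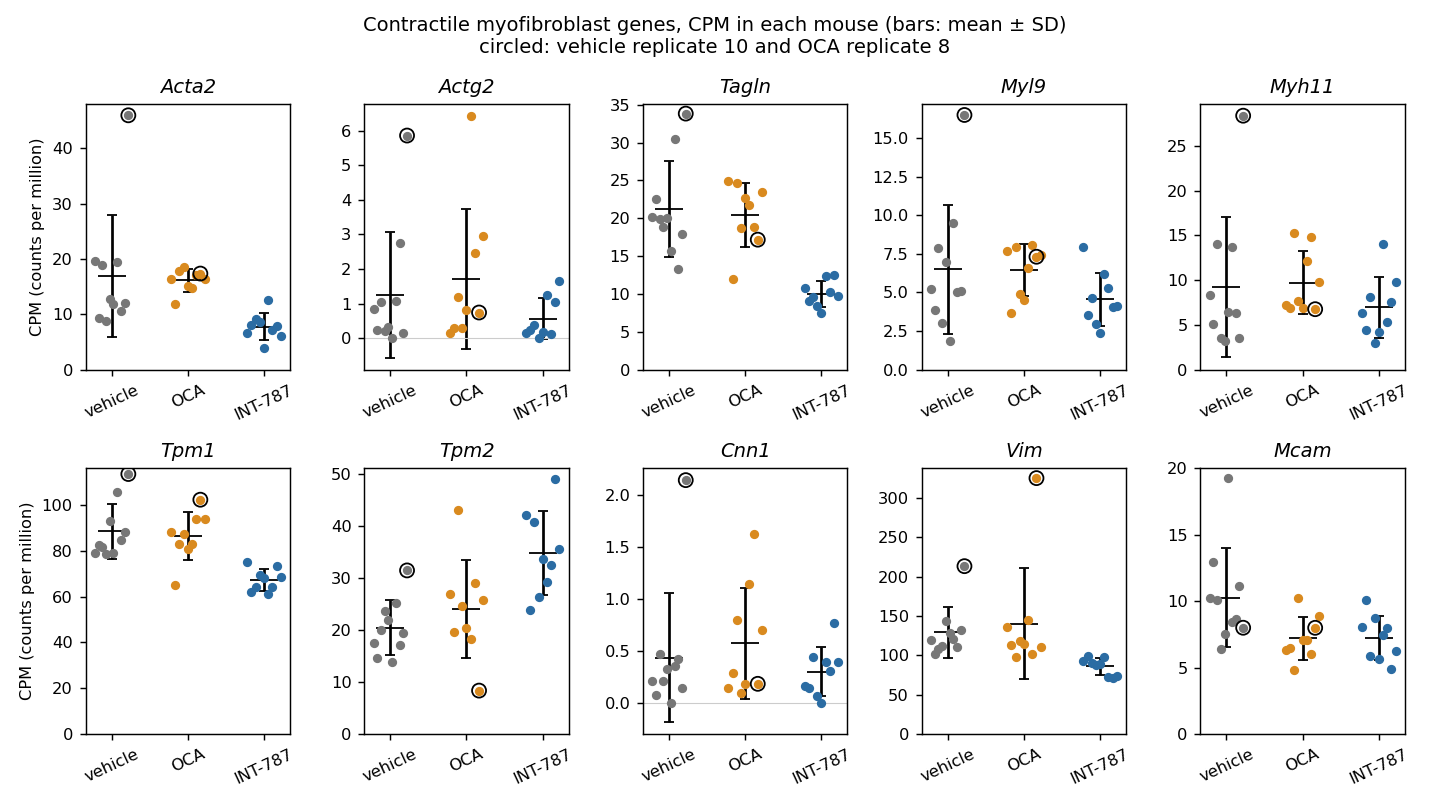
Level of each of the 10 genes in each mouse (TMM-scaled CPM, linear axis), with vehicle (n = 10), OCA (n = 9) and INT-787 (n = 9) side by side. Each point is a mouse. For Tagln, Tpm1 and Vim every INT-787 mouse sat below every vehicle mouse, Tpm2 moved the other way, and vehicle replicate 10 stood at the top for Acta2 at 45.95 CPM.

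The first question was how the livers of INT-787-treated and vehicle-treated mice differed. Acta2, Tagln, Tpm1 and Vim were lower after 2 weeks of INT-787 and Tpm2 was higher, which made 5 of the 9 genes tested called, 4 lower and 1 higher. Over all 12580 genes, 19.6% were called in this comparison, 9.48% lower and 10.2% higher. Acta2 and Tagln fell to 0.450-fold and 0.464-fold of vehicle, Vim to 0.666-fold and Tpm1 to 0.759-fold, while Tpm2 rose 1.67-fold. The median log2 difference of the 9 genes was -0.59, beside -0.0010 over all genes tested. In 3 genes (Tagln, Tpm1 and Vim) the INT-787 and vehicle groups did not overlap, which held for 2.66% of all genes tested. At an unadjusted p under 0.05, 7 of the 9 genes would have passed, as 32.3% of all genes tested did.

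**Figure D2:**
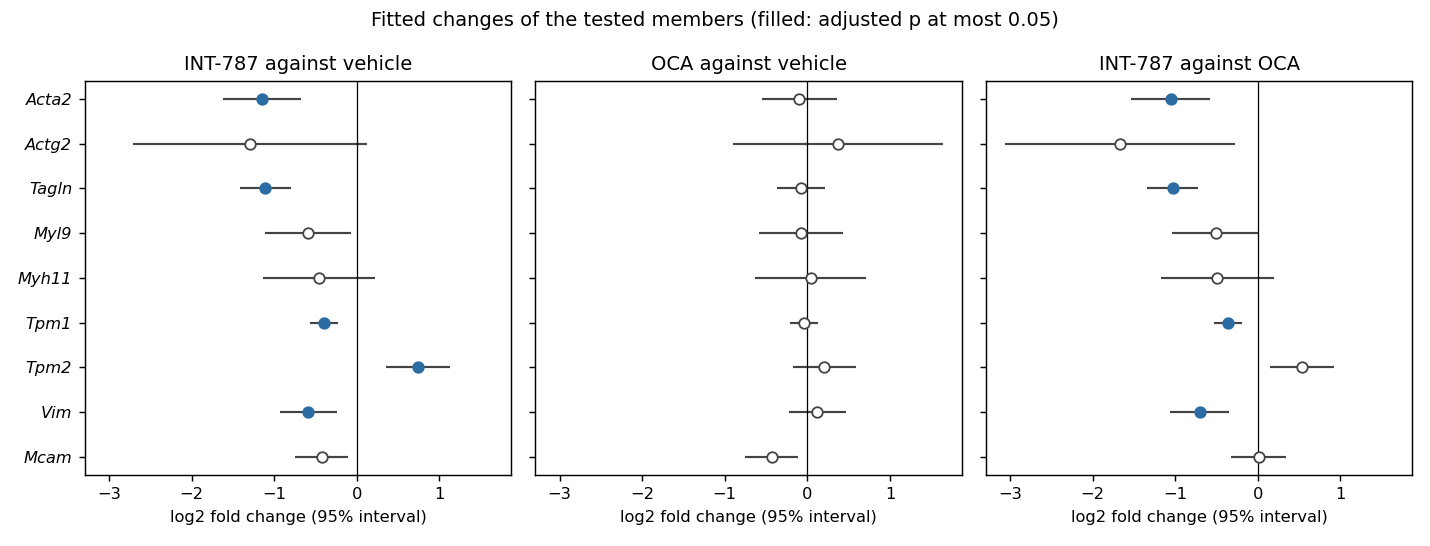
Log2 difference of the 9 tested genes with its 95% confidence interval for OCA against vehicle, INT-787 against vehicle and INT-787 against OCA, from edgeR's quasi-likelihood model; filled points passed the adjusted threshold of 0.05. The OCA intervals straddle 0 for each gene but Mcam, and those of Acta2 and Tagln for INT-787 lie wholly below 0 against either group.

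The actins were described first. Acta2 (ENSMUSG00000035783, chr19:34241090-34255590, minus strand) encodes smooth muscle alpha-actin. Its level ran from 8.81 to 45.95 CPM in vehicle mice with a median of 12.4, from 11.8 to 18.5 CPM with OCA (median 16.5), and from 3.86 to 12.6 CPM with INT-787 (median 7.88). Of the 9 INT-787 mice, 7 were below the lowest vehicle mouse and 8 below the lowest OCA mouse, and the vehicle range was stretched upward by replicate 10 alone, since the next vehicle mouse was at 19.6 CPM. The group means were 16.9 ± 11, 16.1 ± 2.03 and 7.79 ± 2.38 CPM. The log2 difference between INT-787 and vehicle was -1.15 (SE 0.23, 95% confidence interval -1.62 to -0.68, adjusted p = 0.0005). Leaving out replicate 10 put the vehicle mean at 13.7 ± 4.39 CPM (n = 9). The log2 difference between INT-787 and vehicle was then -0.84 (adjusted p = 0.000623). The call therefore held without that mouse, at a smaller size.

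Because Acta2 gave one of the largest differences, the sequence before its start was read from the RefSeq promoter table (GRCm38.p6, from 250 bases before to 50 bases after the start), which lists 7 of the 10 genes. The letters sought were the CArG box, named after its CC, A/T-rich core and GG, which serum response factor binds, and the MCAT element CATTCC, which TEAD factors bind, both on either strand. A CArG box was matched exactly in 1.629% of the 32851 promoters of the table and with 1 G or C in its core in 8.499%, and CATTCC in 14.663%. Acta2 held 2 CArG matches with 1 G or C in the core, 84 and 34 bases before the RefSeq start, and 1 MCAT match. They are shown with 10 bases on either side and the match in capitals, on the minus strand at chr19:34255504-34255529, chr19:34255438-34255467 and chr19:34255388-34255417. GENCODE places the start of Acta2 217 bases further upstream than RefSeq, so that by GENCODE these stretches lie inside the first exon.
Acta2 MCAT match: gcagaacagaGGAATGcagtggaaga
Acta2 CArG match 84 bases before the start: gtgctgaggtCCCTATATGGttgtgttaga
Acta2 CArG match 34 bases before the start: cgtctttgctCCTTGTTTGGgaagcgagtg
These matches describe the letters in the window and were not tested for binding. Tpm1, which also fell with INT-787, held an MCAT match 56 bases before its start. Tpm2, Cnn1, Vim and Mcam held none of the 3 patterns in this window, and Actg2, Tagln and Myh11 were not analysed here.

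Actg2 (ENSMUSG00000059430, chromosome 6) encodes smooth muscle gamma-actin, an actin of gut and vessel muscle. Its levels were low, at 0 to 5.86 CPM in vehicle mice (median 0.587), 0.149 to 6.43 CPM with OCA (median 0.831) and 0 to 1.65 CPM with INT-787 (median 0.247). Every INT-787 mouse lay within the vehicle range and in its lower part, and the highest vehicle and OCA mice, replicates 10 and 6, stood well above the rest of their groups. The count was 0 in vehicle replicate 6, which at its depth allows up to 2.76 CPM, and in INT-787 replicate 4, which allows up to 0.217 CPM; these limits of 3 counts cover counting error only. The log2 difference between INT-787 and vehicle was -1.30 with a 95% confidence interval of -2.72 to 0.12 (adjusted p = 0.201). It was -0.65 (adjusted p = 0.550) when vehicle replicate 10 was left out. No difference in Actg2 was detected, and its interval was wide.

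Tagln and Cnn1 encode proteins that bind actin filaments in smooth muscle. Tagln (ENSMUSG00000032085, chr9:45929619-45936058, minus strand) encodes transgelin, also called SM22 alpha, and had the lowest adjusted p of the set for INT-787 against vehicle. Vehicle mice ran from 13.3 to 33.8 CPM (median 19.97), OCA mice from 11.9 to 24.9 CPM (median 21.8) and INT-787 mice from 7.55 to 12.6 CPM (median 9.73). Every INT-787 mouse was below every vehicle mouse, and 7 of 9 were below the lowest OCA mouse. Means were 21.3 ± 6.34, 20.5 ± 4.22 and 10.0 ± 1.69 CPM, and the log2 difference between INT-787 and vehicle was -1.11 (SE 0.15, 95% confidence interval -1.41 to -0.80, adjusted p = 1.51e-06). It was -1.01 when vehicle replicate 10 was left out. Cnn1 (ENSMUSG00000001349, chromosome 9) encodes calponin-1, a marker of mature smooth muscle, and had 0 to 26 counts per mouse. Its levels were 0 to 2.14 CPM in vehicle (median 0.270), 0.0978 to 1.63 CPM with OCA (median 0.285) and 0 to 0.767 CPM with INT-787 (median 0.313). The 3 medians were within 0.05 CPM of each other and the ranges overlapped.

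The tropomyosins, coiled-coil proteins that lie along actin filaments and set which proteins reach them, differed in opposite directions. Tpm1 (ENSMUSG00000032366, chr9:67022590-67049406, minus strand) ran from 78.5 to 113 CPM in vehicle (median 83.6), 65.2 to 102 CPM with OCA (median 87.3) and 61.3 to 75.2 CPM with INT-787 (median 68.0). INT-787 mice were all below the vehicle mice, and 4 of 9 were below the lowest OCA mouse. Tpm1 fell by 0.40 on the log2 scale compared with vehicle (SE 0.08, 95% confidence interval -0.56 to -0.23, adjusted p = 0.000558), a change small in size but with a narrow spread. Tpm2 (ENSMUSG00000028464, chr4:43514711-43523765, minus strand), which encodes beta-tropomyosin, rose by 0.74 (SE 0.19, 95% confidence interval 0.36 to 1.12, adjusted p = 0.00499). Its levels were 13.8 to 31.5 CPM in vehicle (median 19.8), 8.37 to 43.1 CPM with OCA (median 24.7) and 23.8 to 49.2 CPM with INT-787 (median 33.7). Of the INT-787 mice, 6 of 9 were above the highest vehicle mouse, and OCA mice spread over most of both ranges. Without vehicle replicate 10, in which Tpm2 was also the highest of the group, the log2 difference was 0.83 (adjusted p = 0.00214).

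The smooth muscle myosin genes were not called. Myl9 (ENSMUSG00000067818, chromosome 2) encodes the regulatory light chain whose phosphorylation starts contraction, and ran from 1.84 to 16.5 CPM in vehicle (median 5.17), 3.65 to 8.08 CPM with OCA (median 7.32) and 2.35 to 7.92 CPM with INT-787 (median 4.10). Myh11 (ENSMUSG00000018830, chromosome 16) encodes the smooth muscle myosin heavy chain, found in differentiated smooth muscle, and ran from 3.17 to 28.4 CPM in vehicle (median 6.36), 6.76 to 15.3 CPM with OCA (median 7.63) and 3.03 to 14 CPM with INT-787 (median 6.36). The vehicle and INT-787 medians of Myh11 were alike, and vehicle replicate 10 was the highest mouse for both genes. The log2 difference between INT-787 and vehicle was -0.59 for Myl9 (95% confidence interval -1.11 to -0.07, adjusted p = 0.102) and -0.45 for Myh11 (95% confidence interval -1.13 to 0.22, adjusted p = 0.370). Leaving out vehicle replicate 10 shrank these by over 1.5 times, to -0.33 (adjusted p = 0.321) and -0.08 (adjusted p = 0.896). Leaving out INT-787 replicate 1 instead brought Myl9 past the threshold (-0.72, adjusted p = 0.0475).

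Myl9 was the only member in the promoter table with an exact CArG match, 161 bases before its RefSeq start, next to a match with 1 G or C in the core at 99 bases. The stretch that holds both, chr2:156775293-156775384 on the plus strand of GRCm38.p6, is shown with both matches in capitals.
Myl9 upstream: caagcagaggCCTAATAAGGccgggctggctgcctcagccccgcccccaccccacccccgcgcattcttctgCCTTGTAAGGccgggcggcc

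Vim and Mcam mark cell types more widely than contraction. Vim (ENSMUSG00000026728, chr2:13573927-13582826, plus strand) ran from 102 to 213 CPM in vehicle (median 120.0), 98.2 to 325 CPM with OCA (median 115) and 71.3 to 98.6 CPM with INT-787 (median 89.2). Every INT-787 mouse was below every vehicle mouse and 8 of 9 were below the lowest OCA mouse, while vehicle replicate 10 and OCA replicate 8 held the upper ends. The log2 difference between INT-787 and vehicle was -0.59 (SE 0.17, 95% confidence interval -0.93 to -0.24, adjusted p = 0.0139). It was -0.47 (adjusted p = 0.0332) without vehicle replicate 10 and -0.42 (adjusted p = 0.0922) without vehicle replicates 5, 6 and 10, where the call was lost. Mcam (ENSMUSG00000032135, chr9:44134469-44142727, plus strand) encodes CD146, an adhesion molecule of endothelium and pericytes. Its levels were 6.40 to 19.3 CPM in vehicle (median 9.39), 4.79 to 10.3 CPM with OCA (median 7.07) and 4.88 to 10.1 CPM with INT-787 (median 7.47). The highest vehicle value, in replicate 6, rests on 21 counts. The log2 difference was -0.43 with INT-787 (95% confidence interval -0.75 to -0.10, adjusted p = 0.0561) and -0.43 with OCA (95% confidence interval -0.76 to -0.11, adjusted p = 0.106), and 4 of 9 INT-787 mice and 3 of 9 OCA mice were below the lowest vehicle mouse. The INT-787 difference in Mcam passed the threshold with DESeq2 (adjusted p = 0.0321) and when vehicle replicate 4, 5 or 10, OCA replicate 3 or INT-787 replicate 2 or 4 was left out (adjusted p 0.0264 to 0.0495), with log2 differences of -0.50 to -0.43 without 1 of these mice. Over all 28 mice left out in turn the adjusted p ran from 0.0264 to 0.109. In all, 13 of the 40 alternatives tried, which are described below, gave a call for Mcam. Leaving out vehicle replicate 6 gave -0.36 with INT-787 (adjusted p = 0.0856) and -0.37 with OCA (adjusted p = 0.155).

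The second question was how OCA 30 mg/kg compared with the same vehicle mice. None of the 9 genes was called by edgeR or by DESeq2, while edgeR called 6.6% of all genes tested, 2.45% lower and 4.15% higher. None was free of overlap between OCA and vehicle mice, which 0.89% of all genes tested were. At an unadjusted p under 0.05, Mcam alone passed (p = 0.0104), 1 of 9 beside 18.5% of all genes tested. The intervals bound what these mice could show. For Acta2 the log2 difference was -0.10 (95% confidence interval -0.56 to 0.36, adjusted p = 0.891), for Tagln it was -0.08 (-0.37 to 0.22, adjusted p = 0.861) and for Tpm1 it was -0.04 (-0.21 to 0.12, adjusted p = 0.870). Of these the Acta2 interval was the widest and that of Tpm1 the narrowest. Tpm2 differed by 0.21 (-0.18 to 0.59, adjusted p = 0.632), by 0.056 without OCA replicate 3 and by 0.32 without OCA replicate 8, and Vim by 0.12 (-0.22 to 0.47, adjusted p = 0.790). Myl9 and Myh11 had differences of -0.08 (-0.58 to 0.43) and 0.04 (-0.63 to 0.71), and Actg2 had the widest interval, 0.37 (-0.90 to 1.64). Without vehicle replicate 10 the Acta2 difference changed sign to 0.19 (adjusted p = 0.596), and without OCA replicate 8 that of Vim changed to -0.14 (adjusted p = 0.546). The median over the 9 genes was -0.04, beside 0.02 over all genes tested.

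The third question was whether INT-787 and OCA differed at the same dose and time. Of the 9 genes, 4 were called, with Acta2, Tagln, Tpm1 and Vim below their OCA levels and none above. Of all genes tested, 5.38% were called, 3.19% lower and 2.19% higher with INT-787. Acta2 was at 0.482-fold and Tagln at 0.489-fold of the OCA level, with log2 differences of -1.05 (95% confidence interval -1.53 to -0.58, adjusted p = 0.00596) and -1.03 (-1.34 to -0.72, adjusted p = 4.82e-05). Leaving out vehicle replicate 10, which is in neither group, put these at -1.04 and -1.015. Tpm1 differed by -0.36 (-0.53 to -0.19, adjusted p = 0.00801). Vim differed by -0.71 (-1.06 to -0.35, adjusted p = 0.0130), and by -0.45 (adjusted p = 0.0256) without OCA replicate 8. For the remaining genes the differences were 0.53 for Tpm2 (0.15 to 0.92, adjusted p = 0.0969), -1.67 for Actg2 (-3.06 to -0.27, adjusted p = 0.163; -1.04 without OCA replicate 6), -0.51 for Myl9 (-1.04 to 0.01, adjusted p = 0.276) and -0.49 for Myh11 (-1.18 to 0.19, adjusted p = 0.469). Mcam differed by 0.01 (-0.32 to 0.34, adjusted p = 0.991). Tpm2 passed the threshold when OCA replicate 3 was left out (0.69, adjusted p = 0.0170). At an unadjusted p under 0.05, 6 of the 9 genes passed, beside 18.9% of all genes tested. In none of the 9 did the INT-787 and OCA mice separate fully, a separation that 0.509% of all genes tested showed. The comparisons with vehicle share their control mice, so the INT-787 and OCA values against vehicle are given side by side and were not correlated.

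Vehicle replicate 10 was then examined gene by gene. Its level divided by the median of the other 9 vehicle mice was 17.9 for Actg2, 10.1 for Cnn1, 4.51 for Myh11, 3.81 for Acta2, 3.24 for Myl9, 1.78 for Vim, 1.70 for Tagln, 1.62 for Tpm2, 1.38 for Tpm1 and 0.792 for Mcam. The smooth muscle actin, calponin and myosin genes were thus the ones furthest out, and tropomyosins, vimentin and transgelin were less so. Non-muscle beta-actin (Actb) was also highest there, at 3508 CPM against 1070 to 2279 in the other vehicle mice, as was desmin (Des), an intermediate filament of muscle, at 22.9 CPM against 10.3 to 22.1. Vehicle replicate 10 was the highest mouse for 5 of 13 smooth muscle and pericyte genes, 4 of 18 actin cytoskeleton genes, 3 of 7 lymphocyte genes, 4 of 10 macrophage genes, 4 of 9 hepatocyte genes, 3 of 11 endothelial genes, 2 of 6 mesothelial genes and 0 of 15 regulators of the contractile program. It was the lowest for 5 of 16 genes of myosin regulation, 4 of 10 stellate cell genes and 3 of 15 regulators. Over all genes tested it was the highest vehicle mouse in 20.1% and the lowest in 19.2%, beside 9 and 0 of the 10 contractile genes. The summed smooth muscle and pericyte list was at 105 CPM (86.1 to 129 over the vehicle mice), the matrix list at 1870 CPM (1414 to 2896) and the lymphocyte list at 18.8 CPM against 2.93 to 10.6 in the others. The T cell gene Cd3e was at 6.27 CPM against at most 3.80. The skeletal muscle list was at 1.57 CPM, within the 0.530 to 2.76 of the other vehicle mice, and its defining actin, Acta1, had a count of 0. Whether the lymphocyte, beta-actin or muscle genes had a part in the Acta2 value of this mouse was not tested. In OCA replicate 8, Vim was 2.86 times and Tpm1 1.2 times the median of the other OCA mice, both the highest of the group, while Tpm2 (0.331 times) and Myh11 were the lowest. That mouse had the highest summed matrix (4197 CPM), cholangiocyte (1627 CPM) and portal fibroblast (237 CPM) lists of all 28, and their part in its Vim value was not tested.

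**Figure D3:**
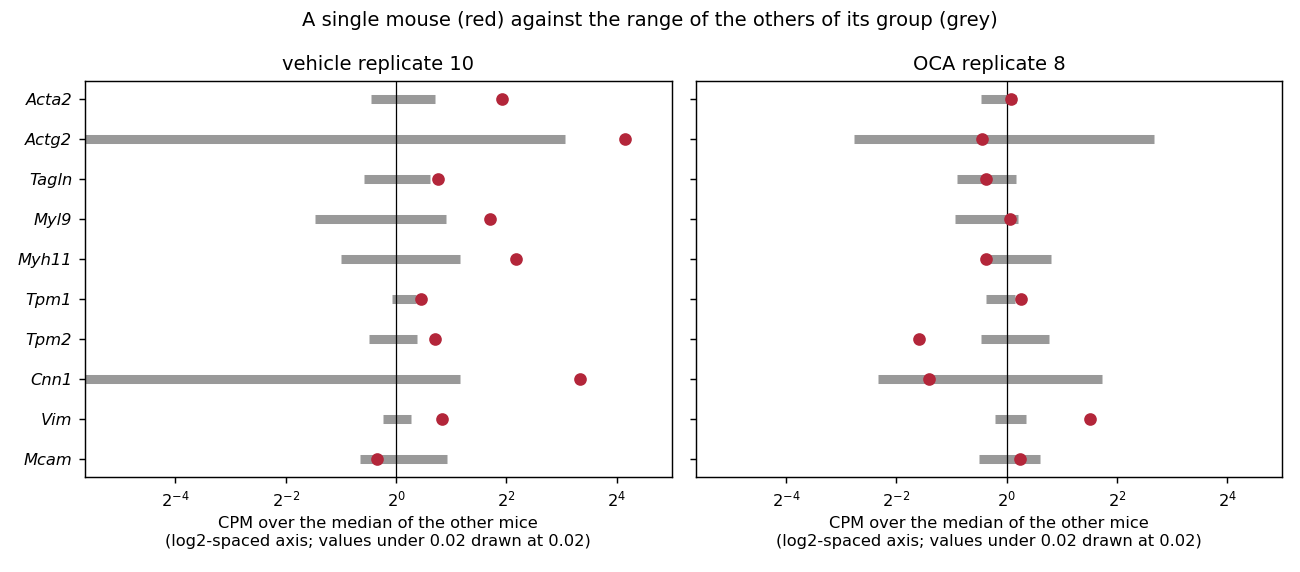
Level of each of the 10 genes in vehicle replicate 10 and OCA replicate 8 as a ratio to the median of the other mice of the same group (log axis; the line at 1 marks no difference). Vehicle replicate 10 stood at 17.9 for Actg2, 3.81 for Acta2 and 0.792 for Mcam, and OCA replicate 8 at 2.86 for Vim and 0.331 for Tpm2.

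How the genes varied together within groups was measured over the 28 mice after each group's mean log2 CPM was subtracted. Of the 45 pairs, 24 passed a permutation test of Pearson's r (100000 resamples, two-sided, Benjamini-Hochberg-adjusted over the 45) and 20 passed with Spearman's rho. No such share was computed over pairs of other genes, so these counts are not read as particular to the set. The sign was positive in 35 pairs and the median r was 0.41. The closest pairs were smooth muscle genes: Actg2 with Cnn1 (r = 0.84, permutation p = 2e-05, adjusted permutation p = 0.00075; rho = 0.80, permutation p = 1e-05, adjusted permutation p = 0.00022), Actg2 with Myh11 (r = 0.73, adjusted permutation p = 0.00075; rho = 0.72, adjusted permutation p = 0.0012) and Myh11 with Cnn1 (r = 0.72, adjusted permutation p = 0.00075; rho = 0.72, adjusted permutation p = 0.00022). Leaving out the 2 mice farthest from the median of the first-named gene left r at 0.78, 0.67 and 0.60. Acta2 varied with Myh11 (r = 0.72, rho = 0.59), Myl9 (r = 0.71, rho = 0.59) and Tagln (r = 0.63, rho = 0.46). Adjusted permutation p values for these were 0.0019, 0.0026 and 0.0029 for r and 0.017, 0.017 and 0.049 for rho, and r dropped to 0.58, 0.53 and 0.46 without vehicle replicate 10 and INT-787 replicate 5, its 2 farthest mice. The r of Acta2 with Cnn1 went from 0.55 to 0.25, with Actg2 from 0.45 to 0.26 and with Vim from 0.37 to 0.19, so those relations rest on the 2 mice. Tagln varied with Myl9 (r = 0.69, adjusted permutation p = 0.0018; rho = 0.64, adjusted permutation p = 0.0049; r = 0.66 without the 2 farthest mice). Tpm2 and Mcam ran in opposite directions (r = -0.59, adjusted permutation p = 0.0027; rho = -0.61, adjusted permutation p = 0.0065; r = -0.65 without the 2 farthest mice). Vim passed with Acta2 alone, and the r of Tpm1 with Tpm2 was 0.22 (adjusted permutation p = 0.36; rho = 0.49, adjusted permutation p = 0.028). Without vehicle replicates 5, 6 and 10, 13 of the 45 pairs passed with r and 6 with rho. No 75-base stretch of any of the 10 genes was found in another gene's transcript.

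**Figure D4:**
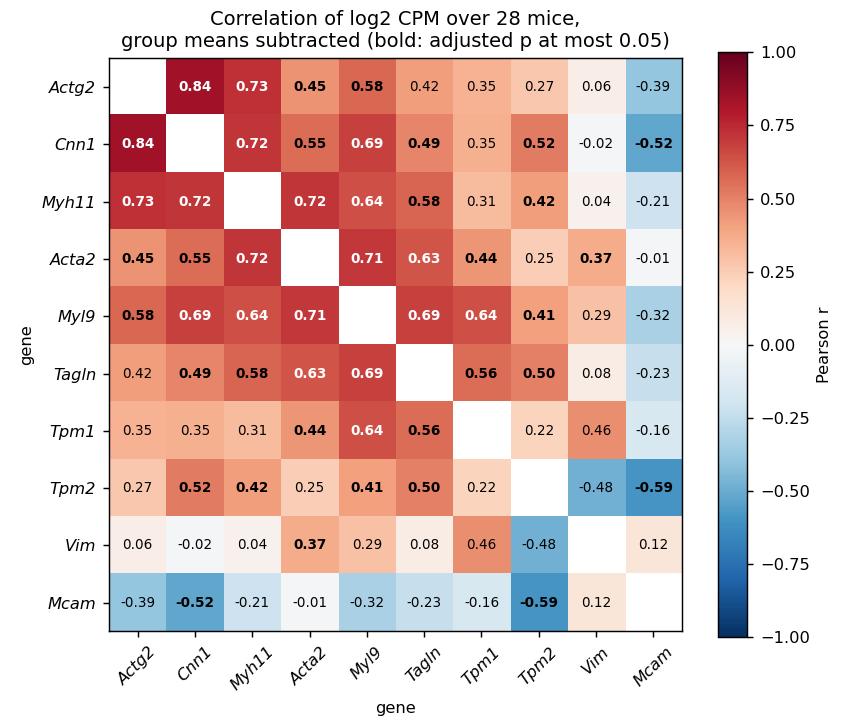
Pearson's r of each pair of the 10 genes over the 28 mice, computed on log2 CPM after the mean of each group was subtracted; color runs from -1 to 1. The block of Actg2, Cnn1, Myh11, Acta2, Myl9 and Tagln is positive throughout, up to 0.84, and 8 of the 10 negative values lie in the Mcam column.

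Over all tested genes outside the set, those whose within-group pattern was most like that of Acta2 were Nxf1 (r = 0.73), Tnfrsf23 (0.72), Lmod1 (0.69), Pdlim3 (0.68) and P4hb (0.67). Lmod1, a smooth muscle leiomodin that nucleates actin filaments, and Pdlim3, an actin-associated LIM protein of muscle, had values of 0.61 and 0.62 without vehicle replicate 10, and Nxf1, Tnfrsf23 and P4hb had 0.50, 0.58 and 0.52. Most like Myh11 were Rhot2 (0.67), Mettl17 (0.66), Eral1 (0.65), Stard5 (0.64) and Bcs1l (0.63). Without vehicle replicate 10 these were at 0.51, 0.58, 0.51, 0.48 and 0.46. The r values describe the 28 libraries and carry no test, since the genes were picked for being the highest.

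Genes of the same families that are not limited to muscle gave a second view, chosen after values were seen. Among tropomyosins compared with vehicle, Tpm4, a cytoplasmic tropomyosin, fell with INT-787 (50.8 ± 6.73 to 32.6 ± 2.80 CPM, log2 difference -0.65, adjusted p = 7.89e-05), and Tpm3 had a difference of -0.11 (adjusted p = 0.526). Tpm2 was thus the only one of the 4 tropomyosin genes that was called higher. Calponins split as well. Cnn2 fell by 0.46 (adjusted p = 0.0183), while Cnn3, the acidic calponin, rose by 0.70 with INT-787 (122.6 ± 12.2 to 199.7 ± 27.9 CPM, adjusted p = 9.41e-07) and by 0.51 with OCA (adjusted p = 0.000315). Tagln2, the transgelin of leukocytes and epithelia, fell by 0.68 compared with vehicle (86.9 ± 13.3 to 54.1 ± 8.14 CPM, adjusted p = 7.15e-05) and by 0.57 compared with OCA (adjusted p = 0.00345). The cytoplasmic actins were not called, with log2 differences against vehicle of -0.27 for Actb (adjusted p = 0.275) and 0.23 for Actg1 (adjusted p = 0.272). Non-muscle myosin heavy chain Myh10 rose by 0.40 (adjusted p = 0.0246), and Myh9 had a difference of 0.09 (adjusted p = 0.702).

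**Figure D5:**
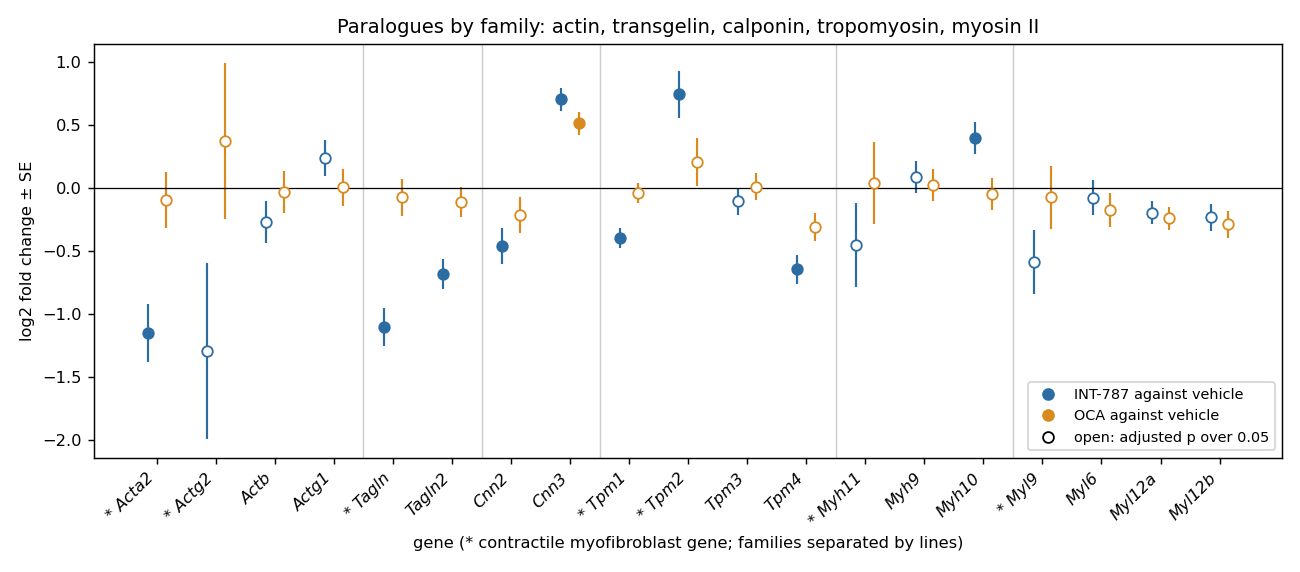
Log2 difference from vehicle with INT-787 and OCA for the actin, tropomyosin, calponin, transgelin and myosin genes, members and relatives together, from edgeR's quasi-likelihood model. Tpm2 (0.74) and Cnn3 (0.70) rose with INT-787 while Tpm1 (-0.40), Tpm4 (-0.65), Tagln (-1.11) and Tagln2 (-0.68) fell.

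The pathway that drives these genes runs through actin assembly to MRTF and serum response factor, with YAP, TAZ and TGF-beta as further inputs. Of 14 tested regulators and targets, INT-787 gave 1 higher and 1 lower call compared with vehicle, a share near the 19.6% of all genes tested, and 1 to 4 were called over the alternatives tried. Nox4, an NADPH oxidase induced by TGF-beta and also made by hepatocytes, rose by 0.73 (36.7 ± 4.28 to 61.1 ± 10.3 CPM, adjusted p = 1.96e-05), and Klf4, a repressor of smooth muscle genes, fell by 0.59 (adjusted p = 0.0163). OCA also gave 1 of each, beside 6.6% of all genes tested called either way, and 0 to 2 were called over the alternatives. They were Nox4 at 0.43 (adjusted p = 0.0181) and Wwtr1, which encodes TAZ, at -0.24 (adjusted p = 0.0281), called in 38 and 32 of 40 alternatives. None of the 14 was called between the drugs by edgeR or DESeq2 (3 at an unadjusted p under 0.05). Srf, Mrtfa, Yap1 and the YAP targets Ccn1 and Ccn2 were not called in any comparison. Ccn2 (-0.62, adjusted p = 0.0800) and Mrtfb (0.34, adjusted p = 0.0630) with INT-787 compared with vehicle were each called in 4 of 40 alternatives, and Ankrd1 was at -0.63 (adjusted p = 0.126). Of 16 tested genes of myosin regulation 3 were called with INT-787, a share near that of all genes tested, and 1 to 4 over the alternatives. Rhoc, a small GTPase, fell by 0.79 with INT-787 (38.1 ± 6.61 to 21.8 ± 3.56 CPM, adjusted p = 1.95e-05), and Myh10 and Mylk, the myosin light chain kinase, rose, the latter by 0.27 (adjusted p = 0.0351), with calls in 37 and 28 of 40 alternatives. None of the 16 was called with OCA compared with vehicle by edgeR or DESeq2 (5 at an unadjusted p under 0.05). Rhoc was lower and Myh10 higher with INT-787 than with OCA (-0.46, adjusted p = 0.0243, and 0.45, adjusted p = 0.0352), beside 5.38% of all genes tested called either way. Of 18 tested actin cytoskeleton genes, 2 rose and 4 fell with INT-787, beside 10.2% and 9.48% of all genes tested, among them Pdlim7 at -0.88 (adjusted p = 0.000402). With OCA, Cnn3 alone of the 18 was called, near the 6.6% of all genes tested.

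Markers of the cell types that could supply these transcripts moved unevenly. Of 9 tested smooth muscle and pericyte genes outside the set, 1 fell with INT-787 compared with vehicle, near the 9.48% of all genes tested. It was desmin (Des) at -0.58 (adjusted p = 0.00799), and at most 3 of the 9 were called over the alternatives tried. None was called with OCA or between the drugs by edgeR or DESeq2 (1 and 4 at an unadjusted p under 0.05). Their summed level ran from 86.1 to 129 CPM in vehicle mice, 77.8 to 112 CPM with OCA and 71.4 to 101 CPM with INT-787. Of 10 quiescent stellate cell genes, 2 fell with INT-787, beside 9.48% of all genes tested, among them Lrat (-0.55), an enzyme of vitamin A storage, and the summed level was 644 to 908, 640.3 to 1068 and 528 to 868 CPM in the 3 groups. The matrix genes of activated fibroblasts showed the broadest change. With INT-787, 13 of 16 were called lower compared with vehicle, beside 9.48% of all genes tested. Among them were the collagen cross-linking enzyme Lox (-1.82), Timp1 (-1.71) and Col5a2 (-1.29). Compared with OCA, 10 of 16 were called lower with INT-787, beside 3.19% of all genes tested. Both counts ran from 10 to 14 over the alternatives. OCA gave 0 calls of 16 compared with vehicle by edgeR and DESeq2 (1 at an unadjusted p under 0.05). Their sum was 1414 to 2896 CPM in vehicle, 1329 to 4197 CPM with OCA and 409 to 1273 CPM with INT-787. Macrophage genes, which matter here because macrophages make vimentin, fell in 6 of 10 with INT-787, beside 9.48% of all genes tested and with 4 to 8 called over the alternatives. Of the 10, 5 were called lower with INT-787 than with OCA, among them Lgals3 (-1.13) and Gpnmb (-1.13), beside 3.19% of all genes tested. The macrophage list had sums of 660 to 883, 515 to 1102 and 409 to 671 CPM in the 3 groups. Of the defining genes of the matrix, macrophage, smooth muscle and stellate lists, none was at 0 in all mice. The part that these cell types had in the differences of Acta2, Tagln, Tpm1 and Vim was not tested.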

How the data were processed

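Liver RNA of 28 mice (10 vehicle, 9 OCA, 9 INT-787) was measured. The deposited values are raw read counts per Ensembl gene, which the authors obtained by aligning TruSeq stranded reads to GRCm38 with STAR and the Ensembl 89 annotation; the counting program and its use of strand are not given in the sources used here. Of 21935 genes, 4615 were at 0 in all mice. Gene positions came from GENCODE M21 (GRCm38), which matched 21858 identifiers, and promoters from RefSeq.

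Genes that passed filterByExpr (12580) were fitted in 1 model of 3 groups with TMM scaling and edgeR's quasi-likelihood test (edgeR 4.0.16, R 4.3.3), without a term for replicate number, and p-values were adjusted by Benjamini-Hochberg over all of them at 0.05. Whether mice were housed or sequenced together is not given, so p-values measure the spread between these mice. Log2 CPM for correlations used a prior count of 2 (numpy 2.4.6, pandas 2.3.3, Python 3.11.15), and CPM levels were TMM-scaled without a prior. The model was tested on simulated data. No 2 libraries of a group agreed within sampling noise (chi-square per gene at least 3.0 over 117 pairs).

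The 10 genes and 16 further lists (178 genes) were chosen with earlier results of these data known. Of each list, at most 3 called genes per comparison with the largest difference were named, plus genes used to check a library and the 5 genes most like Acta2 and Myh11. Family relatives (Tpm3, Tpm4, Cnn2, Actb, Actg1, Myh9), and genes of the contractile pathway that were not called, were named outside that rule. Alternatives were DESeq2 1.42.0, limma-voom (limma 3.58.1), robust edgeR, RLE and upper-quartile scaling, other filters, only the 2 groups compared, blocks and left-out mice.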

Additional observations from a re-analysis of the deposited data

Results flagged for a closer look

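In each group of each of the 10 genes (30 in all), the highest or lowest mouse was compared with its nearest neighbor by Dixon's criterion. Chance passes it in about 1 in 20 groups where values are normally distributed. Low and skewed levels, such as those of Actg2 and Cnn1, need not keep that rate. The criterion was passed in 9, of which 6 were vehicle replicate 10. That this mouse was far out for Acta2 was known beforehand, so its values are a description and not independent evidence. In that mouse Acta2 was at 45.95 CPM from 557 counts (next mouse 19.6 CPM), Myh11 at 28.4 CPM from 344 counts (next 14.1), Myl9 at 16.5 CPM from 200 counts (next 9.50), Actg2 at 5.86 CPM from 71 counts (next 2.75), Cnn1 at 2.14 CPM from 26 counts (next 0.471) and Vim at 213 CPM from 2585 counts (next 144). These 6 values come from a single library and are not independent of each other, and no other library was as far out for Acta2, Myh11, Myl9 or Cnn1.

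Among OCA mice, Actg2 was at 6.43 CPM from 140 counts in replicate 6 (next 2.95), and Vim was at 325 CPM from 5244 counts in replicate 8 (next 145). Mcam was at 19.3 CPM in vehicle replicate 6, the library with the fewest counts, where it rests on 21 counts (next mouse 12.9 CPM).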

How the results depend on the processing

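Over 40 alternatives, Acta2 (log2 difference -1.26 to -0.84), Tagln (-1.17 to -1.01), Tpm1 (-0.46 to -0.35) and Tpm2 (0.66 to 0.86) stayed called for INT-787 against vehicle, as did Acta2 (-1.17 to -0.96), Tagln, Tpm1 and Vim (-0.76 to -0.45) for INT-787 against OCA. Vim against vehicle was not called without vehicle replicates 5, 6 and 10 (-0.42, adjusted p = 0.0922), and Mcam against vehicle was called in 13 of the 40. The number of genes called was 4 to 6 for INT-787 against vehicle, 0 for OCA against vehicle and 4 to 5 for INT-787 against OCA. Without vehicle replicates 5, 6 and 10, 13 in place of 24 correlated pairs passed. With upper-quartile scaling, 37.5% of the called genes were higher with INT-787 than with vehicle, in place of 51.7%, and the median of all genes moved by -0.06 at most.

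The sign of differences that were not called changed in the following. For OCA against vehicle, Acta2 was at 0.049 with limma-voom, 0.23 with the replicate block, 0.18 without vehicle replicates 5, 6 and 10, and 0.19 without vehicle replicate 10 and OCA replicate 8, the last chosen after seeing the data. Under the same settings Myl9 was at 0.032, 0.19, 0.18 and 0.155. Tagln was at 0.013 with the block and 0.0498 without vehicle replicate 10 and OCA replicate 8, Tpm1 at 0.0036 with the block and 0.0095 without vehicle replicates 5, 6 and 10, and Vim at -0.028 without vehicle replicate 10 and OCA replicate 8. For INT-787 against OCA, Mcam was at -0.023 with upper-quartile scaling, at -0.017 with at least 10 counts in every mouse and at -0.0024 with the block. Leaving out 1 mouse at a time gave ranges for OCA against vehicle of -0.18 to 0.19 (Acta2), -0.25 to 1.00 (Actg2), -0.14 to 0.0061 (Tagln), -0.16 to 0.16 (Myl9), -0.067 to 0.40 (Myh11), -0.075 to 0.0033 (Tpm1) and -0.14 to 0.21 (Vim), and of -0.068 to 0.081 for Mcam in INT-787 against OCA. No other group has a replicate 10, so the replicate block gives vehicle replicate 10 a term of its own and in effect leaves it out. Its values are therefore not separate from those without that mouse. The cause of the sign changes was otherwise not tested.

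Over 27 pairs of same-numbered mice, the correlation of deviations from the group means ran from -0.24 to 0.43 and was over 0.1 in 11 (median 0.077, beside 0.0037 for different numbers), and 9 of 27 mice correlated best with their own number. For the sets of mouse numbers it was over 0.1 in 13 of 25 pairs (median 0.105, beside -0.0068), and 9 of 26 mice correlated best with their own set. Some pairs were below 0.1 under both. Neither numbering was taken as a pairing in the main fit, and whether same-numbered mice were handled together was not tested. With the replicate block, 6 genes were called for INT-787 and 0 for OCA compared with vehicle, and 4 between the drugs, Mcam being the addition (-0.48, adjusted p = 0.0412). With sets of the mouse numbers as the block the counts were also 6, 0 and 4. Cnn1, with 0 to 26 counts a mouse and tested only with no filter, had differences of -0.64, 0.32 and -0.96 (adjusted p = 0.51, 0.85 and 0.41).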

Other observations

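Of 8 tested portal fibroblast genes, Eln, which encodes elastin, fell by 1.43 (adjusted p = 0.000376) and Fbln2 by 0.62 (adjusted p = 0.0247) with INT-787 compared with vehicle. Over all genes tested 9.48% were called lower there, and 1 to 4 of the 8 were called over the alternatives. None of the 8 was called with OCA compared with vehicle. Between the drugs 3 were called, all lower with INT-787, beside 3.19% of all genes tested. They were Eln at -1.96 (adjusted p = 4.32e-05), Mfap4 at -1.16 (adjusted p = 0.0210, called in 33 of 39 alternatives) and Dpt at -1.11 (adjusted p = 0.00264). Of 6 cholangiocyte genes, Spp1 (osteopontin) fell by 0.74 (adjusted p = 0.00207) and Cldn4 by 0.84 (adjusted p = 0.0476, called in 18 of 39 alternatives) with INT-787 compared with vehicle. Over all genes tested 9.48% were called lower there, and 1 to 4 of the 6 were called over the alternatives. Spp1 alone was also called lower than with OCA (-1.12, adjusted p = 0.000134), beside 3.19% of all genes tested.

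Of 11 endothelial genes, which include cells that make Mcam, Pecam1 and Cdh5 fell with INT-787 (-0.33, adjusted p = 0.0475, and -0.34, adjusted p = 0.0312). They were called in 19 and 34 of 40 alternatives, and over all genes tested 9.48% were called lower. Rspo3 fell with OCA (-0.40, adjusted p = 0.0431, called in 21 of 39), where 2.45% of all genes tested were called lower. The number of endothelial genes called with INT-787 ran from 0 to 5 over the alternatives. Of 9 hepatocyte genes 5 rose with either drug compared with the same vehicle mice (3 to 5 called over the alternatives), beside 10.2% of all genes tested with INT-787 and 4.15% with OCA, among them Cps1, the first enzyme of the urea cycle, by 0.99 with INT-787 and 0.89 with OCA. None of 3 mesothelial, 5 lymphocyte or 1 skeletal muscle genes tested was called in any comparison, and none of the 5 pancreas genes was tested. The adipocyte gene Cfd, the only one of its list tested, fell by 4.08 with INT-787 and was also called lower with OCA. Its level was low, since the whole adipocyte list summed to 0.477 to 7.35 CPM in vehicle mice, highest in replicate 6. The list summed to 0 to 0.998 CPM with OCA and 0 to 0.506 CPM with INT-787.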
